A study of Homo sapiens with 4 samples.

Results

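Peaks of SAF-A on human chromosomes 4, 13 and 18 were taken from 4 CUT&Tag peak lists of RPE1 cells, a human line derived from retinal pigment epithelium and immortalised with telomerase. A peak was a member when its summit lay on chromosome 4 outside 49.7 to 55.2 Mb, on chromosome 13 from 17.5 Mb on, or on chromosome 18 outside 15.9 to 20.9 Mb, and at least 250 kb from either chromosome end. The positions left out hold the centromeric regions and, on chromosome 13, the short arm. There were 24839 members among 371353 peaks, and the kept sequence was 358 Mb, or 11.5% of the nuclear genome on the hs1 assembly. The arms of the gene-dense chromosomes 17 and 19, with 33001 peaks in 137 Mb, served as the reference.

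All 4 libraries came from wild-type RPE1 cells and the same antibody against SAF-A. Asynchronous cells (unsynchronised, in all phases of the cell cycle) gave replicates 3 and 4, and cells synchronised in mitosis, labelled Sync (M), gave a second pair numbered 3 and 4. Per-library values are given throughout in the order asynchronous 3, asynchronous 4, mitotic 3, mitotic 4. The labels leave unstated whether the replicates are separate cultures, how mitosis was reached, and what share of the cells was mitotic. All p-values below thus reflect only how far these 4 samples vary, and that variation may be technical.

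SAF-A, scaffold attachment factor A, is encoded by HNRNPU and is an abundant nuclear protein that binds both RNA and DNA. It is known for holding chromosome-associated RNA on interphase chromatin and is known to be released from chromosome arms when cells enter mitosis. In CUT&Tag an antibody brings a transposase to the protein, and the fragments cut around it are sequenced. Chromosomes poor in genes tend to lie at the nuclear edge in many human cells, with chromosome 18 and chromosome 19 as the textbook pair of a peripheral and an internal chromosome.

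By RefSeq's GRCh38.p14 gene table, chromosomes 13, 18 and 4 carry 2.98, 3.35 and 3.98 protein-coding genes per Mb, when the genes named on each chromosome are divided by its hs1 length. These are the 3 lowest values among the autosomes. Chromosomes 17 and 19 carry 13.9 and 23.5 and are the 2 highest. Each of the 3 chromosomes thus fitted the label gene-poor.

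Depth differed between the libraries within both states. The smallest local background in a list, a stand-in for depth, was 1.38, 1.17, 1.17 and 1.79 fragments per position. The members numbered 6796, 4930, 5305 and 7808, which was 6.72, 6.45, 6.72 and 6.80% of each list. The deeper library of each state had more members, so contrasts between chromosomes were taken within each library and then compared over the 4 libraries.

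SAF-A peaks were sparser on the 3 gene-poor chromosomes than on the reference arms in every library. The kept sequence held 18.96, 13.8, 14.8 and 21.8 summits per Mb, with a mean of 17.3 ± 3.73 (SD, n = 4). The arms of chromosomes 17 and 19 held 63.5, 51.1, 51.2 and 74.6, with a mean of 60.1 ± 11.3 (SD, n = 4). No gene-poor value reached the lowest reference value. Within a library the reference was denser by 3.35, 3.72, 3.46 and 3.43 times, a spread much smaller than the difference. On the log2 scale the gene-poor density differed from the reference by -1.80 ± 0.065 (SD, n = 4; 4 of 4 libraries lower, exact two-sided sign-flip permutation p = 0.125). With 4 libraries 0.125 is the smallest p this test can give, so it cannot reach 0.05. The 9 contrasts tested this way all have a Benjamini-Hochberg adjusted p of 0.125.

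The 3 chromosomes were not alike. Chromosome 4 was the sparsest, with 14.9, 10.6, 11.8 and 17.6 summits per Mb (mean 13.7 ± 3.16, SD, n = 4). Chromosome 13 held 19.8, 13.8, 14.96 and 21.5 (mean 17.5 ± 3.72). Chromosome 18 held 28.0, 21.6, 22.1 and 32.6 (mean 26.1 ± 5.23). The order 4, 13, 18 held within each of the 4 libraries, although the ranges of the chromosomes overlap across libraries of different depth. This order is not that of coding-gene density, in which chromosome 13 is the lowest of the 3. Among the 24 nuclear chromosomes, counted whole, chromosome 4 ranked 2 from the lowest peak density, chromosome 13 ranked 4 and chromosome 18 ranked 7. Chromosome 18, at 24.6 per Mb, was thus not set apart from chromosomes 2 (24.0) and 8 (24.1). Chromosome X (14.7) was sparser than chromosome 13 (15.8). By arm the means ran from 11.3 ± 2.65 on 4q through 17.5 on 13q, 20.4 ± 4.64 on 4p and 23.1 ± 4.66 on 18q to 37.3 ± 7.41 on 18p (SD, n = 4). The short arm of chromosome 18 stood closest to the reference arms, whose means ran from 55.3 on 19q to 64.3 on 19p.

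**Figure D1:**
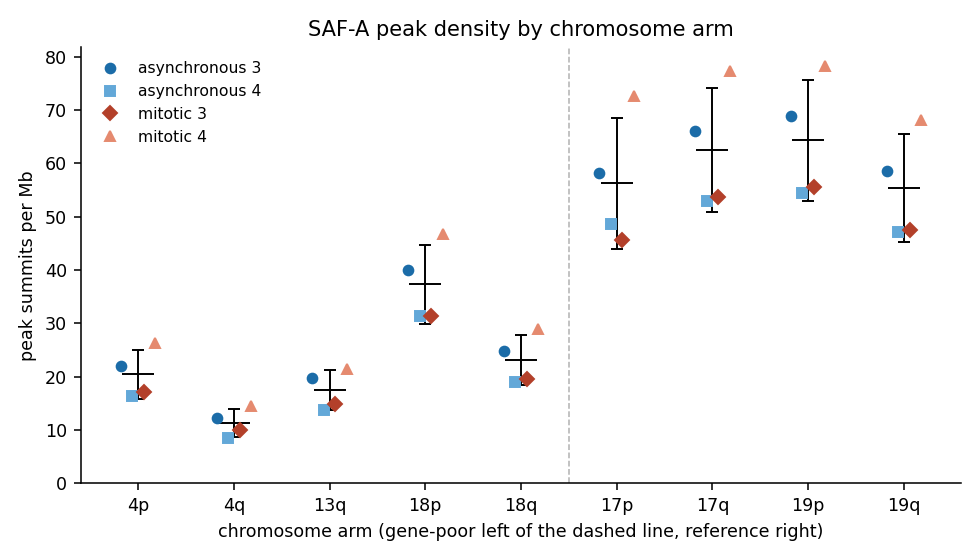
Peak summits per Mb (y axis, from 0) on each chromosome arm (x axis), with 1 point per library and the mean and SD of 4 libraries in black. The 5 gene-poor arms left of the dashed line have means of 11.3 to 37.3 summits per Mb, and the reference arms right of it have means of 55.3 to 64.3.

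On average the deficit was deepest among the strongest peaks. When each list was ranked by the authors' q-value, the reference was 9.54 ± 1.40 times (SD, n = 4) as dense as the gene-poor chromosomes in the strongest 1% of peaks, where the members were 127 peaks over the 4 lists. In the strongest 10% it was 4.81 ± 0.449 times as dense, and in the weakest 10% 3.06 ± 0.278 times. Of the members, 8.34 ± 0.346% were in the strongest 10% of their list, against 11.5 ± 0.371% of reference peaks (SD, n = 4). The log2 ratio of these shares was -0.46 ± 0.071 (4 of 4 libraries lower, exact sign-flip permutation p = 0.125). It was -0.23 against chromosome 17 alone, where 9.78% of peaks were in the strongest 10%, and -0.74 against chromosome 19 alone, where 13.9% were. By chromosome the share in the strongest 10% was 8.41% on chromosome 4, 7.76% on chromosome 13 and 8.75% on chromosome 18. Member peaks also had fewer fragments at the summit, with library medians averaging 10.5 ± 1.00 against 14.5 ± 1.73 (SD, n = 4). The authors' fold ratio of summit to local background went the other way in each library. Its medians were 3.78, 4.15, 4.14 and 3.94 for members, against 3.57, 3.74, 3.78 and 3.52 for reference peaks.

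Density varied along the arms, and in opposite ways on different arms. Chromosome ends were compared as the outer 5 Mb of each arm, from 250 kb inwards, against the rest of that arm. The end of 13q was the densest of the 5 gene-poor ends, with 85.9, 65.7, 63.4 and 96.6 summits per Mb (mean 77.9 ± 16.1), which was 5.45 ± 0.366 times the rest of the arm. The end of 4p held 74.1, 54.7, 50.1 and 85.7 (mean 66.2 ± 16.7), 4.23 ± 0.367 times the rest. Both means lie above the 60.1 per Mb of the reference arms as a whole, and within the 50 to 103 per Mb of the 4 reference arm ends. The other end of chromosome 4 was nearly bare. On 4q the outer 5 Mb held 5.89, 4.42, 3.58 and 5.89 summits per Mb (mean 4.95 ± 1.15), which was 0.432 ± 0.0702 times the rest of the arm. The end of 18p, at 27.3 ± 5.01 per Mb, was 0.657 ± 0.0403 times its arm, and the end of 18q, at 24.7 ± 6.01, was 1.07 ± 0.0881 times its arm (SD, n = 4 throughout). Each of 13q, 4p, 4q and 18p went the same way in 4 of 4 libraries (exact sign-flip permutation p = 0.125 each, 0.161 adjusted over the 9 arms tested), and 18q did not (exact p = 0.25). With the outer 5 Mb of every chromosome end left out, the reference was still 3.60 times as dense as the gene-poor chromosomes.

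Windows of 1 Mb showed the same range within single chromosomes. The median window held 6.75 summits per library on chromosome 4, 10.1 on chromosome 13 and 18.6 on chromosome 18. The fullest window of chromosome 4, from 7000001 to 8000000, held 103, 79, 68 and 116 summits. That of chromosome 13, from 112000001 to 113000000, held 112, 86, 91 and 130. On chromosome 18 the window from 58000001 to 59000000 held 98, 78, 76 and 118. These windows exceed the reference mean of 60.1 per Mb in every library. In all, 7 of 189 windows on chromosome 4, 6 of 96 on chromosome 13 and 9 of 76 on chromosome 18 had a mean above the reference mean.

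Neighbouring summits were farther apart on the gene-poor chromosomes, and the difference grew with distance. The median distance to the next summit of the same list was 14453, 17989, 19391 and 11673 bp, against 8649, 10167, 10363 and 7385 bp in the reference. Within a library the gene-poor median was 1.72 ± 0.125 times as long (SD, n = 4; 4 of 4 libraries, log2 ratio 0.78 ± 0.10, exact sign-flip permutation p = 0.125). Among peaks with a −log10 q of at least 5 the log2 ratio was 1.30. The mean distance was 3.51 ± 0.150 times as long, at 59.4 kb against 16.9 kb. At the 10th percentile the ratio was only 1.40 ± 0.102 (2.54 against 1.80 kb), and at the 90th percentile it was 3.84 ± 0.256 (115 against 29.8 kb). At the 99th percentile it reached 6.63 ± 1.05 (865 against 131 kb). Distances under 5 kb made up 17.4 ± 3.22% of gene-poor and 25.1 ± 5.10% of reference distances, and distances over 100 kb 11.3 ± 2.38% and 1.48 ± 0.350% (SD, n = 4).

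**Figure D2:**
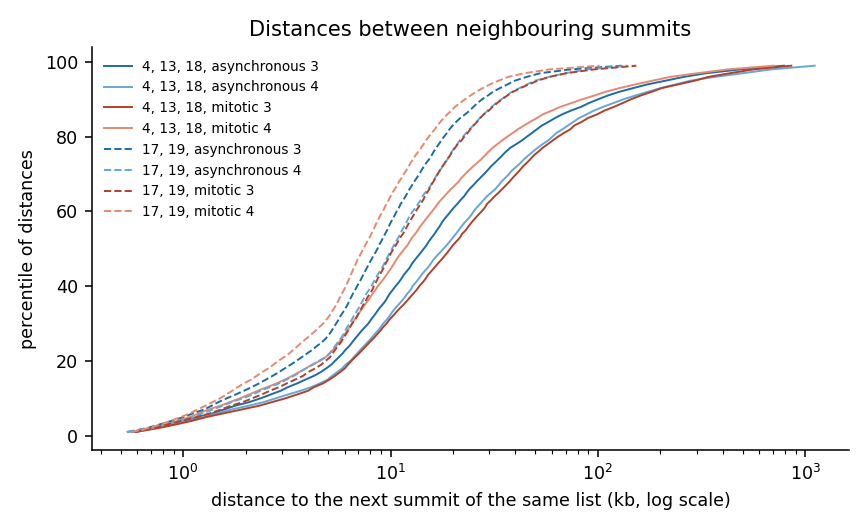
Percentile (y axis) of the distance from each summit to the next one of the same list in kb (x axis, log scale), with 1 line per library and set. The gene-poor curves lie right of their own library's reference curve, by 1.40 times at the 10th and 3.84 times at the 90th percentile on average.

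The spread of the distances relative to their mean was not larger on the gene-poor chromosomes. The coefficient of variation was 2.90 ± 0.206 there and 3.24 ± 0.488 in the reference (SD, n = 4). It was lower in 4 of 4 libraries, by 0.335 ± 0.320 on average (exact sign-flip permutation p = 0.125), with differences from -0.765 to -0.069. The mean difference was -0.192 without mitotic replicate 4 and -0.531 with the outer 5 Mb of each chromosome end left out. The mean divided by the median distance went the other way, at 3.76 ± 0.247 against 1.84 ± 0.0531. A coefficient of variation is sensitive to single long distances. The longest were 2839256, 4315734, 3365623 and 2529188 bp on the gene-poor chromosomes. In the reference they were 2495888, 2777602, 1711235 and 3059160 bp, where the 99th percentile averaged 131 kb. What single distances add to the coefficient was not tested.

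Counted in bins of 100 kb, members were bunched into a minority of the sequence. Of 3582 gene-poor bins, 47.8, 55.8, 50.4 and 47.4% held no summit, against 16.8 ± 1.23% of reference bins (SD, n = 4). Bins empty in all 4 libraries made up 30.2% of the gene-poor and 9.77% of the reference bins, and bins occupied in all 4 made up 34.2% and 76.7%. Even an occupied gene-poor bin held fewer summits, 3.46 ± 0.528 against 7.20 ± 1.27 (SD, n = 4). The fullest 10% of bins held 46.3, 51.3, 46.1 and 46.9% of the members. In the reference the same fraction of bins held 22.2 to 24.4% of the peaks, so the ranges were far apart.

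Bunching was measured as the variance of the bin counts beyond their mean, divided by the square of the mean, which is 0 for summits placed independently at 1 even rate. It was 1.78 ± 0.200 on the gene-poor chromosomes and 0.385 ± 0.024 in the reference, a difference of 1.40 ± 0.176 (SD, n = 4; 4 of 4 libraries, exact sign-flip permutation p = 0.125). Chromosome 4 had the highest value, at 2.21 ± 0.279, ahead of chromosome 13 at 1.69 ± 0.202 and chromosome 18 at 1.10 ± 0.111. On 18p it was 0.553 ± 0.0686, the lowest of the gene-poor arms, and on 18q 1.31 ± 0.131. The arm with the highest peak density among the 5 was thus also the one with the most even bins.

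**Figure D3:**
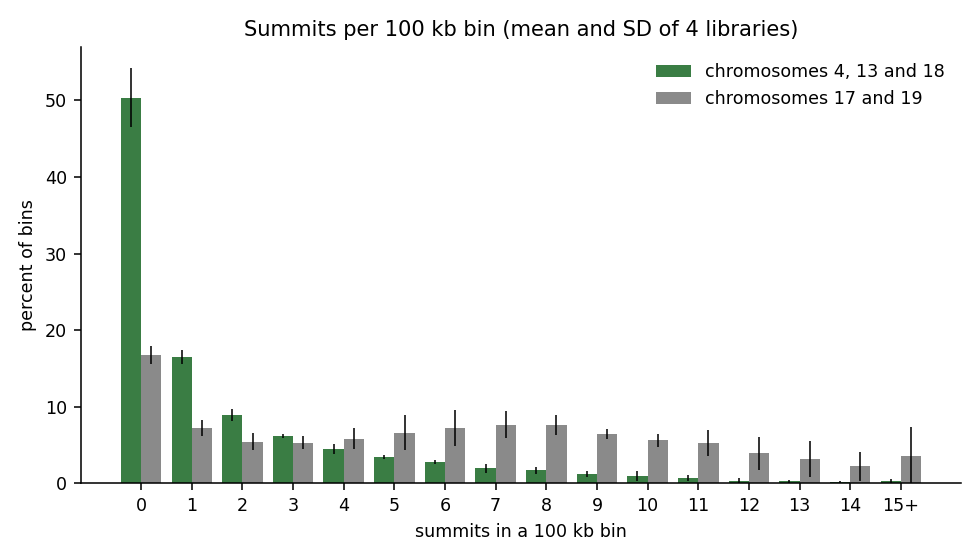
Percent of 100 kb bins (y axis, from 0) holding each number of summits (x axis), as bars with the mean and SD of 4 libraries. Gene-poor bins pile up at 0 (50.3% of bins on average), and only 16.8% of the reference bins are empty.

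The same bins tended to be full in every library. Spearman's rho between the bin counts of 2 libraries was 0.759 to 0.815 over the 6 pairs, across 3582 gene-poor bins, and 0.830 to 0.863 across 1371 reference bins. These values are descriptions, since all libraries share the underlying sequence and neighbouring bins are not independent. A set of 148 gene-poor bins, 4.13% of them, held at least the reference's median count in all 4 libraries, and these bins contained 22.2 ± 1.49% of the members (SD, n = 4). They were 56 bins on chromosome 4, 37 on chromosome 13 and 55 on chromosome 18, so 7.34% of the bins of chromosome 18 and 2.99% of those of chromosome 4 were as full as a typical reference bin.

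The fullest single bins lay mostly near the 4p and 13q ends. On chromosome 4 the bin from 7900001 to 8000000 held 17, 11, 9 and 22 summits, the bin from 3400001 to 3500000 held 13, 15, 6 and 18, and the bin from 3800001 to 3900000 held 14, 10, 9 and 17. All 3 are in the first 8 Mb of the chromosome. On chromosome 13 the bin from 112600001 to 112700000 held 12, 13, 14 and 17 summits, and its merged peaks included 7 regions called in every library. The next were the bins starting at 110100001 (12, 11, 15 and 13) and 113100001 (11, 15, 8 and 15). On chromosome 18 the fullest bins were spread along the chromosome, from 49100001 to 49200000 (14, 13, 12 and 13 summits), 12400001 to 12500000 (12, 12, 8 and 17) and 58400001 to 58500000 (12, 11, 10 and 13). The first of these was also even across the libraries, with a mean of 13 ± 0.816 (SD, n = 4).

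Long stretches without a peak in any list were frequent. There were 69 of them longer than 500 kb, covering 51.5 Mb or 14.4% of the gene-poor sequence, against 9 covering 4.50% of the reference. Chromosome 4 held 46 of them, which took up 18.8% of its kept length, chromosome 13 held 13 and chromosome 18 held 10. The longest ran on 4q from 182447298 to 184220235, a length of 1773 kb, followed on the same arm by 138046089 to 139280939 (1235 kb). On chromosome 13 the longest were 52534105 to 53982324 (1448 kb) and 21158566 to 22166106 (1008 kb). On chromosome 18 they were 52196511 to 53430604 (1234 kb) and 71929393 to 72890837 (961 kb).

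Members were found again in other libraries less often than reference peaks. A peak counted as found again where it overlapped a peak of another list by at least 1 bp. This was so in 49.9 ± 3.36% of members and 59.1 ± 3.28% of reference peaks, a difference of -9.18 ± 1.81 percentage points (SD, n = 4; 4 of 4 libraries lower, exact sign-flip permutation p = 0.125). Among peaks with a −log10 q of at least 5 the shares were 77.1% and 79.0% and the difference was -1.93 points, no longer in 1 direction in all libraries (exact p = 0.25). Peaks whose merged region was called in all 4 libraries made up 19.3, 26.5, 24.6 and 16.6% of the members and 24.0, 30.1, 29.7 and 20.3% of reference peaks, a difference of -4.28 ± 0.748 points (exact sign-flip permutation p = 0.125). It was -1.97 points against chromosome 17 alone, -7.58 against chromosome 19 alone, and -6.46 at a −log10 q of at least 5. The 3 chromosomes differed little among themselves here, at 49.7% found again on chromosome 4, 50.4% on 13 and 49.7% on 18. Overlap was not corrected for peak density, which was 17.3 summits per Mb for members and 60.1 in the reference. The part of density in these differences was not tested.

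Merging the 4 lists gave 16835 gene-poor regions, of which 1256, or 7.46%, were called in all 4 libraries. Over the whole nuclear genome 8.38% of merged regions were, and in the reference 9.93%. A single library called 74.6% of the gene-poor regions. Shared regions were the scarcer kind, with 3.50 per Mb on the gene-poor chromosomes against 14.7 per Mb in the reference, a ratio of 4.20, and single-library regions differed less, with 35.0 against 99.4 per Mb, a ratio of 2.84. On chromosome 4 shared regions occurred once per 366 kb on average, on chromosome 13 once per 267 kb and on chromosome 18 once per 195 kb, against once per 67.9 kb in the reference.

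Sharing fell steeply with strength on both sets of chromosomes. Among the strongest 10% of a list, 89.8 ± 3.70% of members and 91.7 ± 2.87% of reference peaks belonged to regions called in all 4 libraries, lower in 4 of 4 libraries. Among the weakest 10% these shares were 2.11 ± 1.24% and 3.38 ± 1.38%. Overlap with any other library went from 98.9% of members and 99.5% of reference peaks in the strongest 10% to 18.7 ± 2.92% and 27.3 ± 3.51% in the weakest (SD, n = 4). With each list cut into 10 equal classes by strength, this overlap was lower for members in 4 of 4 libraries in the first class and in each class from the fourth down, and in 2 and 3 of 4 libraries in the classes between. The lists differ in depth, so peaks particular to 1 library cannot be told apart from peaks missed in the others.

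The strongest shared regions of each chromosome carried many fragments in every library. Per library, the region on chromosome 18 from 79497770 to 79498894 reached 282, 214, 167 and 279 fragments at its summit. That on chromosome 18 from 12143324 to 12144291 reached 310, 196, 142 and 257, and the third, from 12539825 to 12541003, 141, 106, 97 and 163. On chromosome 4 the regions from 1577511 to 1578577 (213, 174, 126 and 191 fragments) and 3954802 to 3955688 (235, 160, 146 and 245) both lie near the 4p end, and the third is at 74182179 to 74182752 (119, 91, 71 and 114). Chromosome 13 had weaker leaders. Its regions were 112135514 to 112136215 (101, 112, 86 and 154), 44561243 to 44562098 (108, 88, 74 and 117) and 112707741 to 112708500 (107, 75, 95 and 143). These numbers are not corrected for depth. Mitotic replicate 3 was the lowest library in 8 of these 9 regions, although its smallest background, 1.17, equalled that of asynchronous replicate 4. Divided by that background, the first chromosome 18 region averaged 194 in asynchronous and 149 in mitotic libraries. The first chromosome 4 region averaged 152 and 107. The asynchronous mean was the higher in every region except 112707741 to 112708500 (71.0 against 80.5). This difference was not tested as a set. The 9 regions are 574 to 1179 bp wide. The median width over all 1256 shared regions was 754.5 bp, against 260 bp for gene-poor regions of a single library. A shared region joins overlapping peaks of 4 lists, so merging alone widens it, and the reference had nearly the same widths (757 and 259 bp).

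The signal around member peaks was low as well. The local background that the peak caller set beside each summit, divided by the list's smallest value, had a median of 1.26 ± 0.055 for members and 2.36 ± 0.107 for reference peaks (SD, n = 4). The log2 ratio was -0.90 ± 0.059 (4 of 4 libraries lower, exact sign-flip permutation p = 0.125). At the smallest background of their list sat 30.6 ± 3.50% of the members and 5.96 ± 0.803% of reference peaks. On 4q this was so for 41.7 ± 3.49% of peaks, and on 18p for 17.1 ± 3.31%. Called peaks were of nearly the same width, with a median of 302.5 ± 14.5 bp against 311.5 ± 19.6 bp. The difference was -9.00 ± 5.94 bp, lower in 4 of 4 libraries (exact sign-flip permutation p = 0.125). Against chromosome 17 alone it was -5.25 bp and not in 1 direction in all libraries (exact p = 0.25), against chromosome 19 alone -15.5 bp, and at a −log10 q of at least 5 -13.75 bp.

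Bins in the same class of summit number were then compared, a comparison chosen after the values above had been seen, with p-values not adjusted over the classes. In bins with 7 to 9 summits the median local background of peaks was 1.55 ± 0.191 on the gene-poor chromosomes and 2.18 ± 0.346 in the reference. In bins with 10 or more it was 1.98 ± 0.216 and 2.998 ± 0.270 (SD, n = 4), lower in 4 of 4 libraries in both classes. In bins with 1 summit it was 1.00 in both sets, and in bins with 2 to 3 it was 1.02 and 1.13. Median summit fragments were equal in the 2 sets, 8.75 in bins with 1 summit and 9.5 in bins with 2 to 3. These classes held 9.91% and 21.7% of the members. Peaks were also found again in another library less often in bins with 10 or more summits, at 56.5 ± 4.74% against 64.5 ± 4.90%, lower in 4 of 4 libraries (exact sign-flip permutation p = 0.125). In bins with 2 to 3 summits the direction was the opposite, with 46.9 ± 4.95% of members and 42.7 ± 4.80% of reference peaks found again, higher in 4 of 4 libraries (exact sign-flip permutation p = 0.125). The last class has no upper limit, and its bins held 11.4 ± 0.475 summits on the gene-poor chromosomes and 12.05 ± 0.739 in the reference. The classes are filled unevenly, since 16.3% of the members and 46.4% of reference peaks fell in bins of 10 or more.

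**Figure D4:**
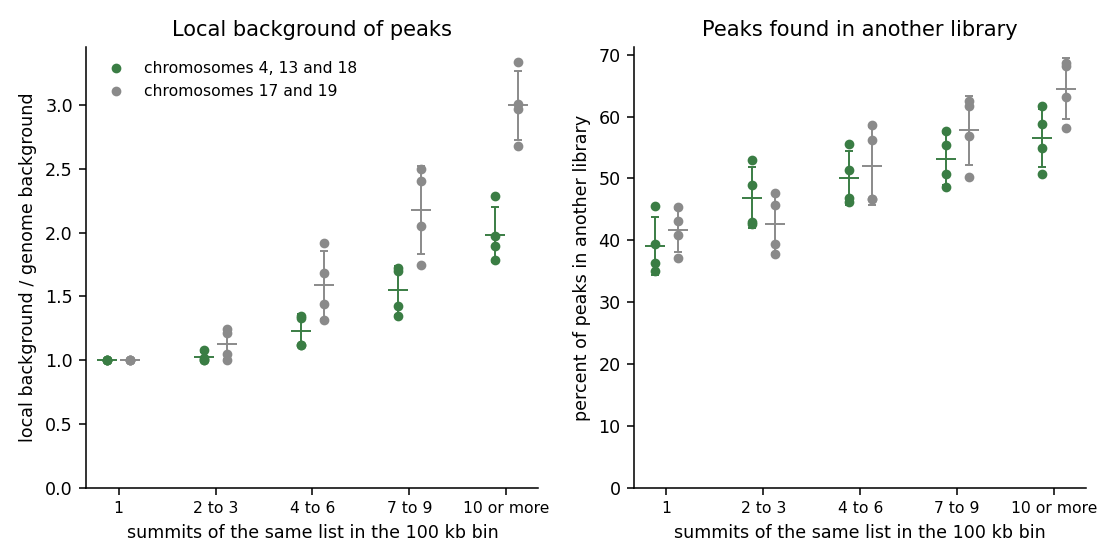
Median local background relative to the list's smallest value (left y axis) and percent of peaks overlapping a peak of another library (right y axis), by the number of summits in the 100 kb bin (x axes), with 1 point per library and the mean and SD. In bins of 10 or more summits both are lower on the gene-poor chromosomes, 1.98 against 2.998 and 56.5% against 64.5%.

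Against the number of genes rather than length, the 3 chromosomes separated. Chromosome 18 had 7.91, 6.08, 6.23 and 9.19 SAF-A peaks per protein-coding gene (mean 7.35 ± 1.48, SD, n = 4), counted over the whole chromosome, and this mean was the highest of the 24 nuclear chromosomes by a small margin. Chromosome 5 followed with 7.20 ± 1.44 and had more than chromosome 18 in mitotic replicate 3 (6.37 against 6.23). Chromosome 13 had 5.30 ± 1.06 and chromosome 4 had 3.37 ± 0.779. The reference chromosomes had 4.23 ± 0.811 (17) and 2.44 ± 0.421 (19), so chromosome 4 lay between them and chromosomes 13 and 18 above both. Within each library, chromosome 18 exceeded chromosome 13 and chromosome 13 exceeded chromosome 4. Genes were taken by chromosome name from a GRCh38 table, so no peak was assigned to a gene.

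Whether mitosis changed SAF-A occupancy was asked for the gene-poor chromosomes as a whole, by arm, by window and by region. As a whole, the contrast with the reference was nearly the same in both states. The log2 ratio of gene-poor to reference density was -1.82 ± 0.107 in asynchronous and -1.78 ± 0.010 in mitotic libraries (SD, n = 2 each), a difference of 0.03 (exact two-sided permutation p = 1, groups overlapping). Bunching in bins was 1.87 ± 0.226 and 1.70 ± 0.200, a difference of -0.172 (exact permutation p = 0.667). With 1 library left out this difference ran from -0.013 (asynchronous replicate 4) and -0.031 (mitotic replicate 3) to -0.314 (mitotic replicate 4) and -0.332 (asynchronous replicate 3). The members' share of the list was 6.58 ± 0.193% in asynchronous and 6.76 ± 0.053% in mitotic libraries. The difference was 0.177 percentage points, and the groups did not overlap (exact permutation p = 0.333). It was 0.041 points without asynchronous replicate 4 and 0.314 without asynchronous replicate 3. With 2 libraries against 2 the smallest p is 0.333, so no single value can reach 0.05. Adjusted over these 3 tests, each p is 1.

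In the full lists, the higher share in mitotic lists lay on chromosome 4. Per 10000 nuclear summits, asynchronous lists had 168 and 154 on 4q and mitotic lists 174 and 175, 1.08 times as many and without overlap (exact permutation p = 0.333, the smallest possible). The ratio ran from 1.03 without asynchronous replicate 4 to 1.13 without asynchronous replicate 3, and with only peaks of -log10 q of at least 5 the groups overlapped. In the full lists chromosome 13 held 188 and 173 against 182 and 179, and chromosome 18 held 208 and 212 against 210 and 213, both with overlapping groups. Chromosome 18 depended on the list used. With only peaks of -log10 q of at least 5 it held 194 and 193 against 200 and 203, without overlap. Of the 24 nuclear chromosomes, chromosome 4 had the highest mitotic to asynchronous ratio of shares (log2 0.09), and chromosome 18 ranked 9 and chromosome 13 ranked 13. Groups without overlap were not particular to chromosome 4. They were also seen on chromosomes 1, 2, 6, 7, 9, 10, 11, 12, 14, 15 and 22. Chromosome 22 differed about as much in the other direction (log2 -0.09).

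Across windows of 1 Mb, no difference between states passed the test. Covered bp per Mb of covered length were compared with limma on log2 values plus 10, over 2932 windows with a peak in at least 2 libraries, and p-values were adjusted over all of them by Benjamini-Hochberg (threshold 0.05). None of the 347 gene-poor windows passed, and in the whole genome 0% passed. At an unadjusted p under 0.05 there were 15 gene-poor windows, or 4.32% against 6.72% of all windows. Mitotic coverage was the higher in 8 of them (4.09% of all windows) and asynchronous coverage in 7 (2.63% of all windows). The median log2 difference was 0.09 over gene-poor windows and 0.02 over all windows.

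The windows with the smallest p differed in kind. On chromosome 4 the window from 172000001 to 173000000 held 54 and 35 asynchronous and 51 and 78 mitotic summits. Its coverage was 497 and 500 against 686 and 713 bp per covered Mb, so the groups did not overlap (log2 0.48, SE 0.14, limma adjusted p = 0.418). On chromosome 13 the window from 80000001 to 81000000 was almost empty, with 1 and 0 summits against 5 and 5 (log2 2.07, SE 0.64, limma adjusted p = 0.516). Another on that chromosome, from 48000001 to 49000000, had 515 and 618 against 382 and 472 bp per covered Mb (log2 -0.40, SE 0.16, limma adjusted p = 0.599). On chromosome 18 the window from 28000001 to 29000000 held 7 and 6 against 13 and 16 summits (log2 0.80, SE 0.34, limma adjusted p = 0.666). The remaining windows, from 110000001 on chromosome 4 and 75000001 on chromosome 18, had log2 differences of 1.53 and -0.91 (limma adjusted p = 0.599 and 0.677).

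**Figure D5:**
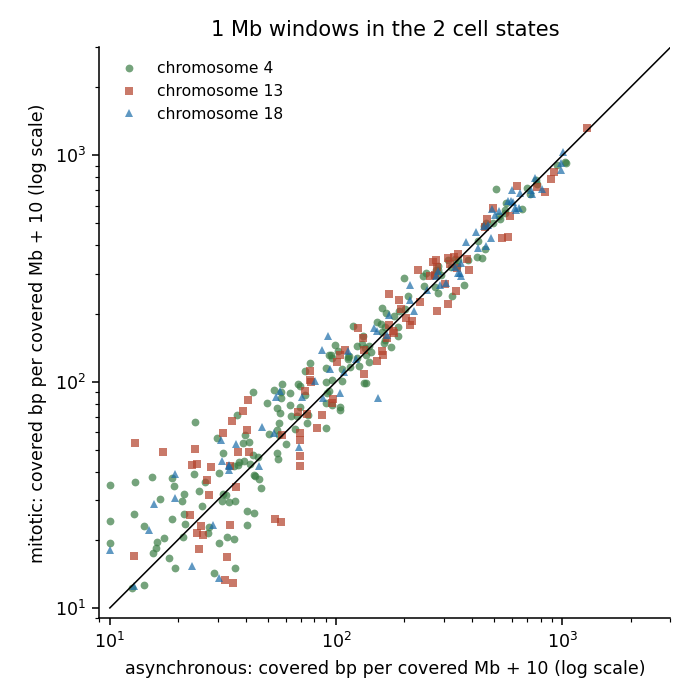
Covered bp per covered Mb plus 10 in gene-poor 1 Mb windows, as the mean of the asynchronous (x axis) and of the mitotic libraries (y axis), both on log scales, with 1 point per window and a line of equality. The 347 windows scatter around the line, with a log2 difference above 0 in 59.9% of them against 53.6% of all windows, and none passed the test.

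At regions called in all 4 libraries, 1 gene-poor region of 1256 passed. Summit fragments were compared with limma after division by each library's median over 20334 such regions. The genome background was 0.059% of regions called. The region lies on chromosome 4 from 157001497 to 157001976, with 15 and 11 asynchronous and 32 and 38 mitotic fragments (log2 1.28, SE 0.29, limma adjusted p = 0.0383). It was lost from the calls in each fit without 1 library, with adjusted p from 0.0682 without mitotic replicate 4 to 0.602 without mitotic replicate 3, and also with a prior without trend (0.303) and with scaling by the genome background (0.118). Of all shared gene-poor regions 95 had an unadjusted p under 0.05, or 7.56% against 8.9% genome-wide. Mitotic fragments were the higher in 37 (4.08% genome-wide) and asynchronous fragments in 58 (4.82% genome-wide). Restricting the comparison to regions called everywhere leaves out any place that fell below the peak caller's threshold in 1 state.

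Other shared regions with small p did not pass. On chromosome 18 the region from 12143324 to 12144291, among the strongest above, had 310 and 196 asynchronous and 142 and 257 mitotic fragments (log2 -0.53, SE 0.15, limma adjusted p = 0.122). On the same chromosome the region from 7789600 to 7790654 had 17 and 14 against 29 and 40 (log2 0.98, SE 0.28, limma adjusted p = 0.152). Chromosome 4 from 79064216 to 79065357 had 54 and 49 against 22 and 43 (log2 -0.91, limma adjusted p = 0.0872). Chromosome 13 from 50798675 to 50799979 had 106 and 97 against 50 and 98 (log2 -0.70, limma adjusted p = 0.0931), and from 109576569 to 109577486 it had 82 and 52 against 91 and 131 (log2 0.58, limma adjusted p = 0.209).

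Regions called in both libraries of 1 state and neither of the other were few. There were 246 asynchronous-only gene-poor regions, 1.46% of the merged regions against 1.66% over the nuclear genome, and 427 mitotic-only regions, 2.54% against 2.8%. Both shares were close to the genome's. Such regions had a median of 10 and 9 fragments at asynchronous-only and 10 and 13 at mitotic-only summits. These were near the medians over all members, 10 and 10 in asynchronous and 10 and 12 in mitotic libraries. The strongest mitotic-only region of chromosome 18, at 23710004 to 23710653, had 22 and 39 fragments. That of chromosome 13, at 110446277 to 110446612, had 23 and 29, and that of chromosome 4, at 188649229 to 188649524, had 18 and 24. Of asynchronous-only regions, the strongest had 18 and 16 fragments on chromosome 4 (23770330 to 23770818) and 14 and 12 on chromosome 18 (5458922 to 5459254).

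The leading asynchronous-only region on chromosome 13 stood apart from these. It runs from 108652150 to 108652328 and had 3182 and 2531 fragments in a width of 179 bp. No mitotic list holds a peak narrower than 182 bp, so its absence from the mitotic lists cannot be told apart from the limit on width. The next on this chromosome, named after its values were seen, runs from 42276675 to 42277086 with 28 and 23 fragments.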

How the data were processed

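CUT&Tag libraries of SAF-A were made with a commercial kit from 100000 cells each, with 1 pg of E. coli DNA added, per the labels' protocols. The tools were MACS2, bedtools, Bowtie2 and fastp and the build was hs1, per the submitters' processing notes. Versions, settings and any control library were not given in the sources used here. The authors deposited 1 peak list per library, with a fold ratio, a −log10 p and a −log10 q value per peak. In each list the smallest deposited −log10 q was just above 1, a q-value limit of 0.1. The deposited score was not used. Fold, p and q are the authors' values and rank, filter or compare peaks only within a list, apart from the fragments recovered from them.

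The fragments at each summit and the local background were solved from fold = (pileup + 1) / (background + 1) and a Poisson p. All pileups under 200 came out whole within 0.05. The smallest background of a list stands for relative depth, since library totals were not used here. Positions count from 1. Chromosome lengths and the centromere limits of chromosomes 17 and 19 (23.8 to 27.5 and 25.8 to 29.8 Mb) were entered from general knowledge of hs1; no peak passed a chromosome end. No hs1 annotation was used, so no region was assigned to a gene, and the gene lists planned for that case were not used here.

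Contrasts within libraries used exact sign-flip tests over the 4 libraries, and states were compared by exact permutation (scipy 1.17.1). Peaks were merged at an overlap of 1 bp. Windows and shared regions were fitted genome-wide with limma 3.58.1 (trended prior), checked on simulated data. Adjusted p-values are Benjamini-Hochberg values over all windows or regions, and they pool the spread over features. Named on each chromosome were the 3 fullest bins, the 3 strongest shared regions, the 2 longest peak-free stretches, the 2 windows and the 2 shared regions of smallest p, the strongest region called in 1 state only, and any that passed. Alternatives were stricter q, equal list lengths, outer 5 Mb left out, each reference chromosome alone, other bins, overlaps, pseudocounts, filters, scaling and priors, a replicate block, and each library left out. The members, lists and tests were chosen with earlier results of these data known. The common smallest width (183 bp), bins classed by summits and densities by strength were added after seeing the data.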

Additional observations from a re-analysis of the deposited data

How the results depend on the processing

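Of 148 recomputed values over 17 results, 138 kept their direction and their side of the threshold or stayed within 1.5 times, 9 moved and 1 changed sign. The state difference of the log2 density ratio was 0.03 with all libraries and -0.041 without asynchronous replicate 4, and it ranged from -0.041 to 0.11 with 1 library left out. The gene-poor shared regions, of which 1 passed, gave 0 calls with a prior without trend and 0 when scaled by the genome background. In both settings there were also 0 calls among the 20334 shared regions of the genome. With 1 library left out the log2 difference of the region that passed ran from 1.04 (mitotic replicate 3) to 1.51 (mitotic replicate 4). Same-numbered libraries did not deviate together (correlation -0.00029 over windows and -0.049 over shared regions). This cannot settle whether the numbers pair, since each state gives 1 contrast of its libraries and depth ran in opposite order in the states. With the replicate block 0 gene-poor windows and 1 gene-poor shared region were called (3 windows and 14 shared regions genome-wide, against 0 and 12 without it). At a −log10 q of at least 5 the regions called in 1 state only numbered 169, of which 33 were asynchronous-only and 136 mitotic-only, against 673, 246 and 427 in the full lists. At that limit asynchronous-only regions were 0.964% of gene-poor regions against 1.01% genome-wide. Mitotic-only regions were 3.97% against 4.24%, so both shares were again close to the genome's. Calls among gene-poor windows were 0 under every alternative run; genome-wide there were 3 with the replicate block and 2 with a pseudocount of 100. Depth is known only in relative terms, and the deeper library of each state had more peaks.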

Other observations

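Distances between neighbouring summits had a step at 5 kb in every library and on both sets of chromosomes. On the gene-poor chromosomes there were 217, 117, 141 and 250 distances of 4 to 5 kb and 287, 184, 173 and 424 of 5 to 6 kb, a ratio of 1.45 ± 0.217 (SD, n = 4). On the arms of chromosomes 17 and 19 the ratio was 1.67 ± 0.190. The part of this step in the density and spacing contrasts was not tested.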
